A study of Mus musculus with 9 samples.

Results

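The regions described here are the Glis3 binding sites of mouse pancreatic islets that lie on their own between genes. They are peaks of Glis3 binding whose midpoint fell outside every gene of the study's expression table, more than 1 kb and at most 100 kb from the nearest gene 5′ end, and outside chains of 3 or more distal peaks spaced within 12.5 kb. Position alone chose them, and 3296 of the 21254 deposited peaks met the rule. Of the others, 10618 lay within 1 kb of a gene 5′ end, 5398 were scattered inside genes, 1017 stood in distal chains, 921 were intergenic and farther than 100 kb from a 5′ end, and 4 were on contigs without genes.

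Binding was measured by chromatin immunoprecipitation and sequencing (ChIP-seq) with an antibody to GFP on islets from Glis3-eGFP mice aged 8 weeks, so it was read through the tag on Glis3. RNA sequencing measured gene expression in islets at 4 weeks of age, in 4 controls of genotype Glis3fl/fl and 3 libraries of genotype Pdx1-Cre;Glis3fl/fl, called the labelled knockout. Both RNA groups carry the floxed alleles, and Pdx1-Cre acts in the pancreatic progenitors that give rise to endocrine, acinar and duct cells, so deletion is not limited to beta cells. No group with Cre alone was analysed here, and the ages of the binding and expression experiments differ. The peak list is a single list of 200 bp intervals without scores, so the height and the reproducibility of a peak are not known.

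Glis3 is a Krüppel-like zinc finger transcription factor related to the Gli proteins of Hedgehog signalling. In the pancreas it is known for its role in beta cell formation, in insulin gene transcription and in the fetal endocrine programme upstream of Neurog3, and it binds a G-rich element with the core TGGGGGGT. Binding sites far from a gene's 5′ end can act as enhancers, but the gene that such a site serves is not always the nearest one.

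The word intergenic holds for the expression table, and less so for RefSeq. Of the 3210 regions on chromosomes covered by the RefSeq tables used here (assembly GRCm38.p6, the same primary sequence as mm10), 993 (30.9%) lay inside a RefSeq gene span. These spans were of long non-coding RNAs for 576 regions and of protein-coding genes for 424 regions, with some regions in both. A RefSeq transcription start lay within 1 kb of 286 regions (8.91%). The other 86 regions were on a chromosome not covered by those tables. Members were also close to a second gene, since 2388 of the 3296 (72.5%) had another 5′ end within 100 kb, and for 1442 (43.8%) this second 5′ end was less than 2 times as far as the nearest.

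Sequence could be read only where a region overlapped a RefSeq promoter window, which runs from 250 bases before to 50 bases after a RefSeq start. Such an overlap was found for 145 regions, 86 at starts of long non-coding RNAs and 59 at starts of protein-coding genes, and 39 regions were covered over all 200 bases. The core TGGGGGGT, searched on both strands, was in 3 of these 39 (7.69%, 95% exact binomial interval 1.62 to 20.9%). It was in 12 of 1094 covered promoter peaks (1.10%), in 1 of 49 covered scattered peaks inside genes (2.04%, 0.0517 to 10.9%) and in 360 of 32851 RefSeq windows of the same length (1.10%). None of the 3 matches lay wholly in the central 100 bp of its peak, so the central count was 0 of 39. The shorter GGGGGGT, which every TGGGGGGT contains, was in 4 of the 39 (10.3%, 2.87 to 24.2%). It was in 4.66% of promoter peaks, 2.04% of scattered peaks inside genes and 3.88% of all windows. The intervals cover counting error only, and the 39 regions are those at RefSeq starts, not a sample of all 3296.

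The 4 regions with a core are shown because they are the only ones of the 39 that hold the known Glis element or its shorter form. The letters run 5′ to 3′ on the plus strand, cover the part of the peak before the RefSeq start, and have the core or its reverse complement in capitals. The first lies at chr14:78732772-78732971, at a RefSeq start of Dgkh, a diacylglycerol kinase, and 7.78 kb from the 5′ end that the expression table gives. The second, at chr3:131489770-131489956, lies before Sgms2, which makes sphingomyelin, with Papss1 as the nearest gene of the table at 74.9 kb. The third, at chr4:136387307-136387489, lies before the non-coding RNA Gm31295, 36.1 kb from the serotonin receptor gene Htr1d. The fourth, at chr9:31280744-31280928, lies before Gm10910, with its core ending 2 bp from the RefSeq start.
Dgkh: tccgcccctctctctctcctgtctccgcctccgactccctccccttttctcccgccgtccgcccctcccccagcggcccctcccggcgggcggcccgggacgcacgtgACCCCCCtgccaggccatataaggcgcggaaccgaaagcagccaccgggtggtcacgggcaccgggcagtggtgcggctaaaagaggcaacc
Sgms2: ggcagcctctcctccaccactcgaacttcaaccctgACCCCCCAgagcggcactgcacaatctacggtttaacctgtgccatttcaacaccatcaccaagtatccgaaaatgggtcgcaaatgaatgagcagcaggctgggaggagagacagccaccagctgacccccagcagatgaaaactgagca
Gm31295: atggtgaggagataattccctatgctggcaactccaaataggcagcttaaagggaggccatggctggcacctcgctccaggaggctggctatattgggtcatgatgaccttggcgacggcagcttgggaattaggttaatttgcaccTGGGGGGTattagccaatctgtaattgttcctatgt
Gm10910: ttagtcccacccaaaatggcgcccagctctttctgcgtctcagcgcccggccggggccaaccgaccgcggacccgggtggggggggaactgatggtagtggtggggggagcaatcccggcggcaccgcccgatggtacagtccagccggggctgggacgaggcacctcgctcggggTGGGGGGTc
Neither of the 2 enzymes among them passed the test in the islets: the log2 change was 0.64 ± 0.55 (SE) for Dgkh (adjusted p = 0.494) and -0.24 ± 0.12 (SE) for Sgms2 (adjusted p = 0.208), by edgeR's quasi-likelihood test.

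A further 4 regions are shown, picked from those at RefSeq starts beside genes that changed in the islets, described below. Other changed genes, Ndrg4 and Ablim1 among them, also had such regions, which are not shown. The first, at chr11:60222753-60222831, is the part of a peak 271 bp upstream of a RefSeq start of Srebf1. The second, at chr10:127380517-127380667, lies before R3hdm2, and the third, at chr9:36833361-36833560, before Fez1. The fourth, at chr1:72243766-72243965, lies before the non-coding RNA D230017M19Rik, 31.6 kb upstream of Mreg. None of these 4 stretches holds GGGGGGT on either strand, but this is no result about changed genes. For R3hdm2, Fez1 and D230017M19Rik it was settled by the choice, since all fully covered regions with that sequence were already shown above. For Srebf1 only 79 bases of the peak could be read, so its absence from the rest of the peak is not known.
Srebf1: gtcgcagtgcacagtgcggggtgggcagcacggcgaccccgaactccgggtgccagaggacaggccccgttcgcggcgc
R3hdm2: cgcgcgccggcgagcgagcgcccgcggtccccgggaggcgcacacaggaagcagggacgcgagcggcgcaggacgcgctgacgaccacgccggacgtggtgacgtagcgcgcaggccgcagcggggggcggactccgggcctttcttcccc
Fez1: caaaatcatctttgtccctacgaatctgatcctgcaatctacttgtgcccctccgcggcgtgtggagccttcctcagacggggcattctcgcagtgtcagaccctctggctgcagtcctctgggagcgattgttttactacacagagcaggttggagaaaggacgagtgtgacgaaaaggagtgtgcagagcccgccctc
D230017M19Rik: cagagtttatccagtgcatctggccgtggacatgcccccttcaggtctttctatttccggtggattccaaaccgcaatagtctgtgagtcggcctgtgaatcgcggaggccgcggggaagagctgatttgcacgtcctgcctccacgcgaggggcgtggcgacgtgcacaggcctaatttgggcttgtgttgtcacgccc
They are G and C rich, at 74.7%, 78.1%, 55.5% and 59.0%. Over the 39 fully covered regions the median was 59.5% with 10 CpG dinucleotides, below the 66.5% and 18 CpG of covered promoter peaks and above the 53.0% and 5 CpG of all RefSeq windows. Covered scattered peaks inside genes had a median of 64.0% and 15 CpG.

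Other elements were also counted in the 39 regions, on both strands. The Ets site CCGGAAG, common in promoters of widely used genes, was in 1 of them (2.56%, 0.0649 to 13.5%). It was in 212 of 1094 promoter peaks (19.4%), 2 of 49 covered scattered peaks inside genes (4.08%) and 6.29% of all windows. The GC box GGGCGG of Sp and Klf factors was in 19 (48.7%, 32.4 to 65.2%), against 61.9% of promoter peaks, 51.0% of peaks inside genes and 31.0% of all windows. The E-box CAGATGG bound by Neurod1 was in 4 (10.3%, 2.87 to 24.2%), against 2.19% of promoter peaks, 4.08% of peaks inside genes and 3.47% of all windows. The interval includes the shares of peaks inside genes and of all windows. The Foxa site TGTTTAC was in 0 of 39, with an upper exact bound of 9.03%. A match describes letters, and these windows are not the places where most of the 3296 regions lie.

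The scattered regions were spread over the whole distance range. Their distance to the nearest 5′ end had a median of 23.8 kb, with an interquartile range of 9.88 to 46.9 kb. Upstream regions numbered 2267 (68.8%) and downstream regions 1029. The intergenic sequence that the distance and gene rules allow was 543.3 Mb upstream and 271.2 Mb downstream, so the density was 4.17 peaks per Mb upstream and 3.79 downstream. Density was 4.70 peaks per Mb at 1 to 5 kb, 5.16 at 5 to 10 kb, 4.43 at 10 to 25 kb, 4.03 at 25 to 50 kb and 3.12 at 50 to 100 kb. It was 6.25 per Mb on chromosome 11 and 0.825 per Mb on chromosome X, which held 51 regions. No score or mappability value was at hand to set beside these densities.

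**Figure D1:**
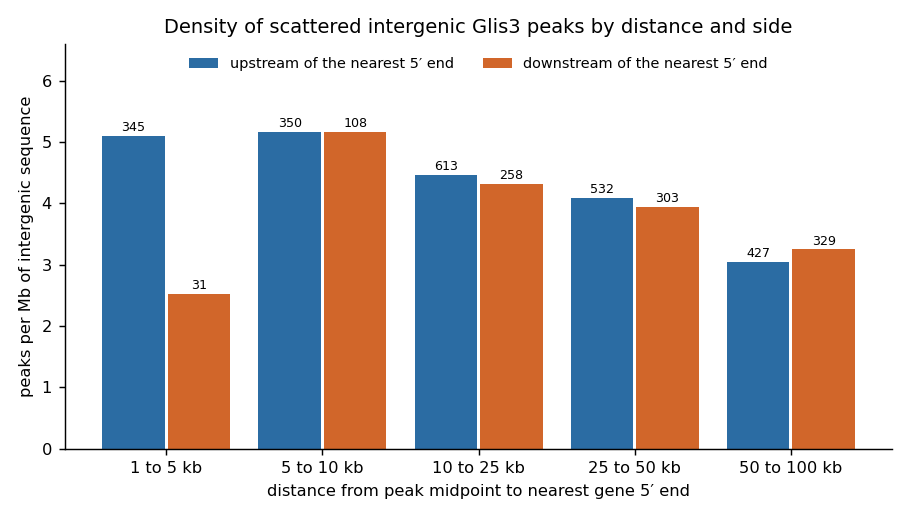
Scattered intergenic Glis3 peaks per Mb of allowed intergenic sequence (vertical axis) by distance from the nearest gene 5′ end (horizontal axis), upstream and downstream, with the number of peaks above each bar. Upstream density falls from 5.16 per Mb at 5 to 10 kb to 3.04 at 50 to 100 kb, and the low downstream bar at 1 to 5 kb rests on 31 peaks.

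The rule's limits cut through a continuous range. Just inside the lower limit lay peaks at 1005 bp from Adcy5 and 1007 bp from Msh5, and just outside it peaks at 1000 bp from Sesn3 and Usp49. At the upper limit, peaks at 99973 bp from Memo1 and 99877 bp from Cntn3 were inside, and peaks at 100008 bp from Sntn and 100141 bp from 1700060C16Rik were outside. A pair of distal peaks within 12.5 kb is not a chain, and 832 regions were in such a pair. The other 2464 had no further distal peak within that spacing.

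The 3296 regions had 2499 different nearest genes. Of these, 1896 had 1 such region, 455 had 2 and 148 had 3 or more. A region within 5 kb of a microRNA hairpin was found for 15 hairpins, at 12 regions. One of these regions, at chr8:84210412-84210611, lay 1590 bp from Mir24-2, 1753 bp from Mir27a and 1919 bp from Mir23a, which are made from a shared transcript, and others lay 2102 bp from Mir138-1 and 2923 bp from Mir26b. Levels of mature microRNAs were not measured in these libraries.

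Genes nearest to a scattered intergenic region fell in the labelled knockout in a larger share than tested genes in general, while the share that rose was close to that of all genes. Of the 2499 nearest genes, 1770 passed the filter on low counts and were tested. In them, 192 fell (10.8%), 173 rose (9.77%) and 1405 did not pass, at an adjusted p under 0.05 (edgeR's quasi-likelihood test, Benjamini-Hochberg over 14529 genes). Over all 14529 tested genes, 5.25% fell, 8.73% rose and 14.0% changed either way. The median log2 change was -0.059 for the nearest genes and 0.007 for all tested genes. Changes of at least 2-fold were called for 59 lower and 84 higher of the 1770 nearest genes, against 218 lower and 597 higher of all 14529. With library size as the only scaling, 99 nearest genes fell (5.59%) and 241 rose (13.6%), against 2.23% and 12.8% of all genes, and the median of all genes shifted to 0.175.

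The share that fell differed between kinds of region. It was 6.35% for genes nearest to a promoter peak, 10.1% for peaks inside genes, 17.7% for chains of distal peaks, 8.97% for intergenic peaks beyond 100 kb, and 2.05% for genes nearest to no peak. A gene can be nearest to peaks of several kinds, so these sets overlap. Of the nearest genes of scattered intergenic regions, 1169 tested genes also had a promoter peak, and 146 of them fell (12.5%) and 101 rose (8.64%). The 398 tested genes with no peak of any other kind showed the opposite balance, with 23 lower (5.78%) and 50 higher (12.6%). These shares are descriptions of overlapping sets, and their differences were not tested.

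**Figure D2:**
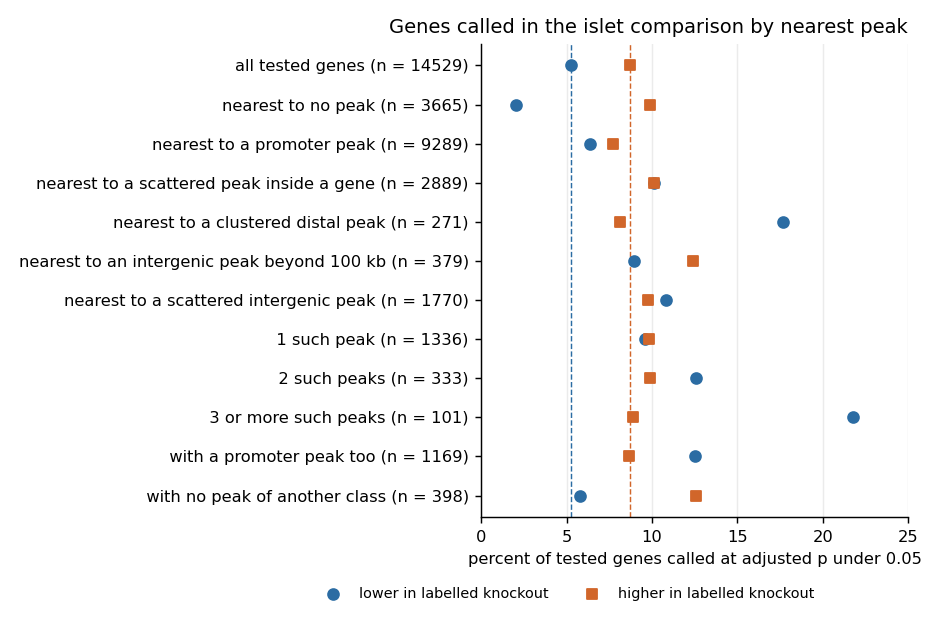
Percent of tested genes called lower (circles) or higher (squares) in the labelled knockout (horizontal axis) for genes grouped by their nearest Glis3 peak (vertical axis, n tested genes); dashed lines mark all tested genes at 5.25% and 8.73%. Genes with 3 or more scattered intergenic peaks have the right-most circle, at 21.8%, and genes with no peak of another class sit near the lower dashed line at 5.78%.

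By distance, the share of tested nearest genes that fell was 8.60% at 1 to 5 kb, 11.8% at 5 to 10 kb, 14.4% at 10 to 25 kb, 12.5% at 25 to 50 kb and 9.38% at 50 to 100 kb. The share that rose over the same bins was 11.1%, 7.03%, 8.80%, 9.62% and 12.3%. More genes rose than fell at both ends of the range, and more fell than rose in between. Regions outside every RefSeq gene span and over 1 kb from RefSeq starts, an alternative chosen after seeing the data, numbered 2153. Their 1226 tested nearest genes had 11.5% lower and 9.62% higher.

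Expression level moved with these shares, and it was set beside them in 4 equal bins of the mean CPM, which is the count scaled to library size with TMM factors. In the highest bin, 110 of 594 nearest genes fell (18.5%), against 218 of 3038 other genes (7.18%). In the lowest bin, 10 of 365 nearest genes (2.74%) and 40 of 3268 others (1.22%) fell. The share that rose went from the lowest to the highest bin as 5.21%, 10.4%, 10.8% and 11.4% of nearest genes and as 5.63%, 7.62%, 7.22% and 14.2% of others, so nearest genes were the higher of the 2 sets in the middle bins and the lower in the outer ones.

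**Figure D3:**
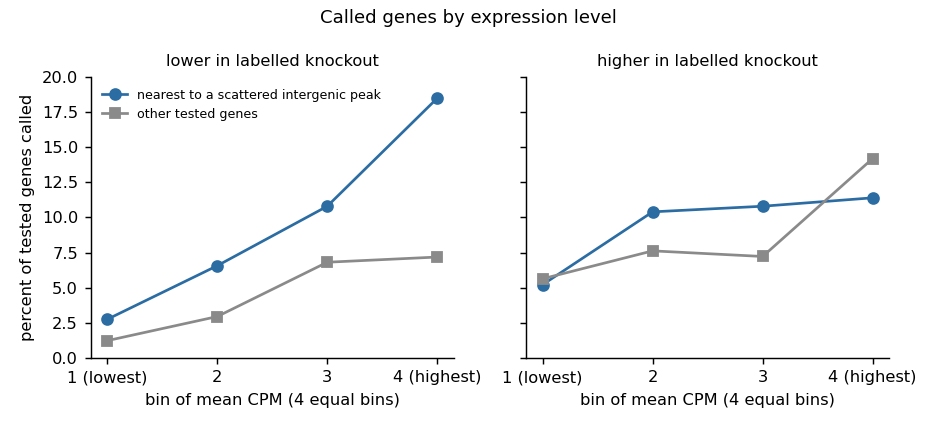
Percent of tested genes called lower (left) or higher (right) in the labelled knockout (vertical axis) by bin of mean CPM (horizontal axis), for genes nearest to a scattered intergenic peak (circles) and all other tested genes (squares). For lower calls the circles lie above the squares in all 4 bins, at 18.5% against 7.18% in the highest.

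The number of regions at a gene also moved with the share that fell. It was 9.58% of 1336 tested genes with 1 region, 12.6% of 333 genes with 2 regions, and 21.8% of 101 genes with 3 or more regions (22 genes), where 9 genes rose (8.91%). Among the 22 were Slc2a2, Nkx6-1, Chga, Slc30a8 and Scd2, which are described below. Others were Dact2, a regulator of Wnt and TGF-beta signalling (log2 change -1.22 ± 0.13 SE, adjusted p = 1.91e-05), F3, the tissue factor of coagulation (-1.19 ± 0.17, adjusted p = 0.000362), and Tle3, a co-repressor of transcription (-0.91 ± 0.15, adjusted p = 0.000870), all by edgeR. Pparg, a nuclear receptor of lipid metabolism, fell by 1.47 ± 0.40 on the log2 scale (edgeR adjusted p = 0.0249), but its adjusted p was 0.0704 without control 3, 0.0520 without control 4, 0.0544 without knockout 1 and 0.0642 without knockout 2. Among the 9 that rose were Dusp6, a phosphatase that switches off ERK signalling (1.70 ± 0.27, edgeR adjusted p = 0.00145), and Isl1 and Ttr. These 4 and Dusp6 were named after their values were seen.

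In bulk islets, fewer cells of a type and less RNA per cell cannot be told apart, and the marker lists bear on this. The summed CPM of 10 islet endocrine markers was 395582 to 656420 in controls and 260410 to 379141 in the labelled knockout. Of these 10 markers, 4 fell and 4 rose, and the sum is mostly that of Ins1 (mean 128563 and 52149 CPM) and Ins2 (272484 and 90319 CPM). Acinar markers summed to 673 to 4682 and 2325 to 12631, which overlap, and 3 table rows of Amy2a5 were at 0 in every library. Duct markers summed to 52.6 to 88.9 and 495 to 727, endothelial markers to 479 to 544 and 531 to 688, and stellate and fibroblast markers to 185 to 244 and 228 to 336. The duct sum was higher in every labelled knockout library than in every control, but of the 5 tested duct markers 1 was called higher and 0 lower, so the sum does not stand for the whole list. The part of these sums in the calls was not tested. Total counts ran from 18297697 to 48054551 in controls and from 12099365 to 22578480 in the labelled knockout.

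Glis3 itself had 2 scattered intergenic regions, 41.9 and 54.2 kb upstream, beside a promoter peak. Its CPM was 39.5, 46.8, 31.2 and 33.6 in controls and 52.1, 52.7 and 57.8 in the labelled knockout, so the groups did not overlap and the labelled knockout was the higher one. The log2 change was 0.52 ± 0.14 (SE, edgeR adjusted p = 0.0257), and the adjusted p was 0.0505 with replicate number as a block. Leaving out control 3, control 4, knockout 1 or knockout 3 gave 0.0945, 0.0850, 0.0501 and 0.117. Counts over the whole gene do not show whether a floxed stretch was lost, so this level neither bears out nor contradicts the label, and every direction below is that of the libraries labelled knockout.

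The list of beta cell identity and glucose sensing had 13 of its 34 genes nearest to a scattered region, with 22 regions. Of these 13, 5 fell, 5 rose and 3 did not pass, with a median log2 change of -0.681 against 0.007 for all tested genes. In the whole list 12 of 33 tested genes fell and 9 rose, against 5.25% and 8.73% of all tested genes. Slc2a2, the glucose transporter GLUT2, had 616, 535, 458 and 489 CPM in controls and 64.2, 82.5 and 133 in the labelled knockout. Every knockout library was below every control, a log2 change of -2.49 ± 0.23 (SE, edgeR adjusted p = 8.36e-06), or 5.62-fold lower. Its 3 regions lay 1.69 kb upstream at chr3:28696115-28696314, 15.9 kb upstream at chr3:28681930-28682129 and 39.3 kb downstream at chr3:28737137-28737336, and it had no promoter or chained peak. Slc2a2 was also nearest to 3 scattered peaks inside genes, 30.1, 39.4 and 106 kb upstream.

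Ins1, one of the insulin genes of the mouse, had a region 11.8 kb upstream at chr19:52252407-52252606 beside a promoter peak. Its CPM was 99611, 97061, 148401 and 169179 in controls and 35943, 43934 and 76569 in the labelled knockout, with no overlap (log2 change -1.30 ± 0.28 SE, edgeR adjusted p = 0.00751). Ins2, the other insulin gene, had a promoter peak but no scattered region. Slc30a8, the zinc transporter of insulin granules, had 609, 571, 558 and 560 CPM in controls and 298, 236 and 356 in the labelled knockout (-0.95 ± 0.14, edgeR adjusted p = 0.000545). Its scattered regions lay 17.0, 78.0 and 79.4 kb upstream, in addition to a promoter peak and a peak inside the gene. The groups were again apart.

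Igf1r, a growth factor receptor with a region 1.26 kb upstream, fell by 0.68 ± 0.14 on the log2 scale (edgeR adjusted p = 0.00476; 0.0503 under library size alone). Ero1lb, an oxidase for proinsulin folding, fell by 0.61 ± 0.15 (edgeR adjusted p = 0.0159), with adjusted p of 0.0516 without control 3, 0.0885 without knockout 1 and 0.0504 without knockout 2. Ucn3, a marker of mature beta cells with regions 37.0 and 53.8 kb upstream, had 560 to 1063 CPM in controls and 345 to 620 in the labelled knockout. The groups overlapped and Ucn3 did not pass (log2 change -0.78 ± 0.25 SE, edgeR adjusted p = 0.0642), but it passed with replicate number as a block (-0.61, adjusted p = 0.00265). It also passed by limma-voom (adjusted p = 0.0436) and by edgeR under library size alone (adjusted p = 0.0257). Leaving out control 1, control 2 or knockout 3 gave edgeR adjusted p of 0.0281, 0.0497 and 0.0207. Glp1r, the incretin receptor, did not pass either (-1.04 ± 0.38, edgeR adjusted p = 0.103) and passed with the block (-1.25, adjusted p = 0.00328). Glp1r also passed by DESeq2 (adjusted p = 0.0213) and without control 4 (edgeR adjusted p = 0.0375). The third that did not pass was Adcy5, an adenylyl cyclase (-1.37 ± 0.45, edgeR adjusted p = 0.0598). Adcy5 passed by DESeq2 (adjusted p = 0.0174) and without knockout 2 (edgeR adjusted p = 0.0459). Igf1r, Ero1lb, Ucn3, Glp1r and Adcy5 each also had a promoter peak.

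Another 5 genes of the same list rose. Pcsk1, a prohormone convertase that acts on proinsulin, had 213, 226, 217 and 214 CPM in controls and 601, 557 and 646 in the labelled knockout (log2 change 1.47 ± 0.11 SE, edgeR adjusted p = 1.85e-06), with regions 56.0 kb upstream and 73.7 kb downstream. Npy, a neuropeptide of immature beta cells, had 20.6 to 30.1 CPM in controls and 88.8 to 109 in the labelled knockout (2.03 ± 0.14, edgeR adjusted p = 9.08e-07), with a region 81.5 kb downstream. Entpd3, an enzyme of the beta cell surface, rose by 1.22 ± 0.12 (edgeR adjusted p = 8.98e-06). Npy and Entpd3 also had a promoter peak. Dlk1, a Notch ligand relative with regions 2.63 and 10.7 kb upstream, rose by 2.19 ± 0.29, and Nnat, a small membrane protein with regions 17.4 and 47.2 kb upstream, by 1.73 ± 0.22 (edgeR adjusted p = 0.000291 and 0.000244).

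**Figure D4:**
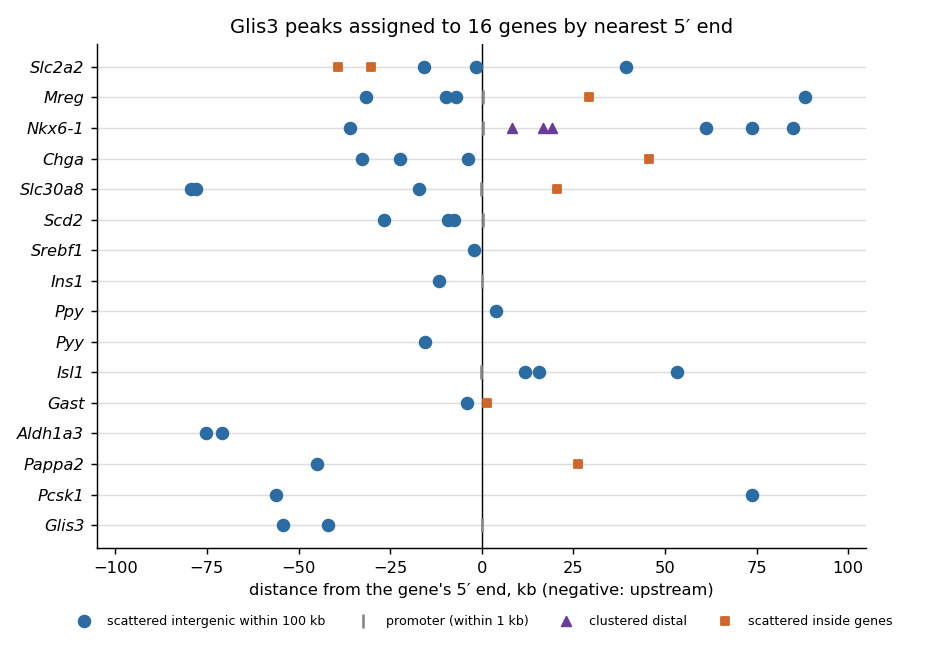
Positions of Glis3 peaks (horizontal axis, kb from the gene's 5′ end, negative upstream) assigned to 16 genes (vertical axis) by nearest 5′ end, with circles for scattered intergenic peaks; peaks beyond 100 kb are left out. Chga has its 3 scattered peaks upstream and no promoter peak, and the 4 of Nkx6-1 lie on both sides of a chain of 3 peaks.

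Of the 44 islet transcription factors, 12 were nearest to a scattered region, with 20 regions in all. Nkx6-1 and Meis1 fell, Isl1 and Glis3 rose, 6 did not pass and 2 were not tested. In the whole list 8 of 37 tested genes fell and 3 rose, where 5.25% of all tested genes fell and 8.73% rose. Nkx6-1, a homeodomain factor of beta cells, had 187, 214, 253 and 190 CPM in controls and 70.9, 122 and 79.7 in the labelled knockout (log2 change -1.21 ± 0.18 SE, edgeR adjusted p = 0.000535). Its 4 scattered regions lay 36 kb upstream at chr5:101700624-101700823 and 61.2, 73.7 and 84.8 kb downstream, in addition to a promoter peak and a chain of 3 peaks. Isl1, a LIM-homeodomain factor of all endocrine cells, had 150, 149, 154 and 130 CPM in controls and 237, 250 and 238 in the labelled knockout (0.73 ± 0.11, edgeR adjusted p = 0.000648), with 3 regions 11.9, 15.7 and 53.4 kb downstream. The knockout libraries were below the controls for Nkx6-1 and above them for Isl1, without overlap. Isl1 also had a promoter peak.

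Meis1, a TALE homeodomain factor with a region 1.56 kb upstream, fell by 0.90 ± 0.22 on the log2 scale (edgeR adjusted p = 0.0138). Neurog3, the factor that starts endocrine development, had a region 25.4 kb downstream. Its CPM was 15.0, 8.25, 11.6 and 12.6 in controls and 0.0743, 5.36 and 2.35 in the labelled knockout. The groups did not overlap, but the test did not pass (-2.13 ± 0.78, edgeR adjusted p = 0.126). Without knockout 1 the edgeR adjusted p was 0.00973, and without knockout 2 it was 0.0364. By limma-voom the adjusted p was 0.0480. Foxa2, a pioneer factor of endoderm, had regions 6.5 kb upstream and 95.4 kb downstream and did not pass (-0.36 ± 0.13, edgeR adjusted p = 0.0850). Foxa2 passed by DESeq2 (adjusted p = 0.0438) and without knockout 2 (edgeR adjusted p = 0.0447). Meis1 and Neurog3 also had a promoter peak, and Foxa2 had distal peaks in a chain. Pdx1 and Mafa, which are activators of insulin transcription, had no scattered intergenic region; their distal peaks were in chains or inside genes. Of the other islet genes, Ins2, Gcg, G6pc2, a glucose-6-phosphatase, and Ccnd2, a cyclin of beta cell growth, had none either.

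Granule proteins were represented by 9 nearest genes, of which 2 fell, 2 rose and 5 did not pass, with a median log2 change of -0.091. In the whole list 5 of 32 tested genes fell and 13 rose (median 0.216), where 5.25% of all tested genes fell and 8.73% rose. Chga, the granule protein chromogranin A, had 13842, 14085, 17024 and 15425 CPM in controls and 6605, 7262 and 7157 in the labelled knockout (log2 change -1.11 ± 0.13 SE, edgeR adjusted p = 7.48e-05). Its regions stood in a row upstream, at 3.66, 22.3 and 32.8 kb. Scg2, the related secretogranin II, went the other way, from 3447 to 4162 CPM in controls to 6696 to 8435 in the labelled knockout (0.99 ± 0.13, edgeR adjusted p = 0.000154), with regions 33.5 kb downstream and 41.9 kb upstream. Slc30a8 was the other gene that fell. Sv2b, a vesicle protein, rose by 0.95 ± 0.23 (edgeR adjusted p = 0.0119), with an adjusted p of 0.0667 without knockout 1.

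Markers of the other endocrine cells had 7 nearest genes, with 2 lower, 2 higher and 3 not passing and a median log2 change of 0.125. In the whole list 4 of 20 tested genes fell and 7 rose (median 0.135), against 5.25% and 8.73% of all tested genes. Ppy, the hormone of pancreatic polypeptide cells, had 7933, 6536, 7689 and 3164 CPM in controls and 575, 581 and 280 in the labelled knockout (log2 change -3.73 ± 0.42 SE, edgeR adjusted p = 0.000844). Its region lay 3.97 kb downstream of its 5′ end, at chr11:102097231-102097430. The neighbouring gene Pyy, peptide YY, had a region 15.5 kb upstream at chr11:102123198-102123397 and 3984, 4251, 6644 and 4679 CPM in controls against 1842, 1980 and 1638 in the labelled knockout (-1.43 ± 0.18, edgeR adjusted p = 9.95e-05). Neither gene had a peak of another kind.

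Gast, the gene of gastrin, was near the detection limit in controls at 0.557, 0.370, 1.40 and 0.670 CPM and reached 27.7, 29.2 and 22.1 in the labelled knockout. The log2 change was 5.27 ± 0.33 (SE, edgeR adjusted p = 4.29e-07), with a region 4.02 kb upstream at chr11:100330285-100330484. A nearer Glis3 peak lay inside Gast, 1.45 kb downstream of its 5′ end. Ttr, transthyretin, rose by 1.65 ± 0.16 (edgeR adjusted p = 1.29e-05) with 3 regions and a promoter peak. Sst, the hormone of delta cells, had regions 47.8 and 57.0 kb downstream and did not pass, at 5768 to 9323 CPM in controls and 7992 to 8555 in the labelled knockout (0.12 ± 0.16, edgeR adjusted p = 0.677). Under library size alone Sst passed, with a log2 change of 0.32 (edgeR adjusted p = 0.0416). Gcg, the glucagon gene of alpha cells, was nearest to no peak of any kind.

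Of 8 genes of cholesterol and fatty acid synthesis nearest to scattered regions, 6 fell, 0 rose and 2 did not pass, where 5.25% of all tested genes fell and 8.73% rose. They had a median log2 change of -0.836 against 0.007 over all tested genes. In the whole list 13 of 25 tested genes fell and 1 rose, with a median of -0.640. Srebf1, the sterol-regulated transcription factor of lipogenic genes, had 103, 122, 107 and 102 CPM in controls and 61.3, 67.7 and 48.0 in the labelled knockout (log2 change -0.87 ± 0.14 SE, edgeR adjusted p = 0.000641). Its only peak of any kind is the one printed above.

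Stard4, a cholesterol carrier, fell by 1.26 ± 0.22 on the log2 scale (edgeR adjusted p = 0.00154). Scd2, a fatty acid desaturase with 3 regions 7.43, 9.27 and 26.6 kb upstream, fell by 0.64 ± 0.14 (edgeR adjusted p = 0.00588), with an adjusted p of 0.0660 under library size alone. Fdps, which makes farnesyl diphosphate, fell by 0.53 ± 0.14 (edgeR adjusted p = 0.0214), with an adjusted p of 0.224 under library size alone, 0.0584 without control 2, 0.0533 without control 3 and 0.0735 without knockout 3. Scd1 (-1.03 ± 0.32, edgeR adjusted p = 0.0512) and the elongase gene Elovl5 (-0.33 ± 0.12, edgeR adjusted p = 0.0726) did not pass. All 8 had a negative log2 change under TMM, RLE and library size scaling and an unadjusted p under 0.05 by edgeR, and the number called lower was 8 by DESeq2, 6 by limma-voom and 4 under library size alone, with 0 higher by each. Of the genes named here, Stard4, Scd2, Fdps and Elovl5 also had a promoter peak.

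Of the other lists, ion channels had 7 nearest genes, of which 2 fell, Mcoln3 among them, Scn3a rose, 3 did not pass and 1 was not tested. In the whole channel list 7 of 28 tested genes fell and 3 rose, against 5.25% and 8.73% of all tested genes. Scn3a, a sodium channel subunit with a region 6.36 kb upstream, went from 17.2 to 24.1 CPM in controls to 55.6 to 61.7 in the labelled knockout (log2 change 1.54 ± 0.14 SE, edgeR adjusted p = 6.58e-06). All 9 nearest genes of TGF-beta, BMP and activin signalling, among them Bmp2, Id1 and Smad7, did not pass by edgeR, with a median of 0.026; 1 had an unadjusted p under 0.05, and DESeq2 and limma-voom also called 0. In the Glis, Gli and Hedgehog list, with 5 nearest genes, Glis3 alone passed by edgeR, 3 genes did not pass and 1 was not tested. Of 35 tested genes in the whole TGF-beta list and 15 in the whole Glis list, 1 fell and 1 rose in each. Circadian factors had 5 nearest genes, of which Bhlhe41, a repressor of the clock, fell by 0.94 ± 0.20 (edgeR adjusted p = 0.00567). The other 4 did not pass, and in the whole circadian list 2 of 19 tested genes fell and 0 rose. In endoplasmic reticulum folding, with 2 nearest genes, Pdia6, a disulfide isomerase, rose by 0.86 ± 0.23 (edgeR adjusted p = 0.0261), with adjusted p of 0.0681 without control 2 and 0.0711, 0.108 and 0.0787 without knockout 1, 2 and 3. Among all 23 tested folding genes, 8 rose and 1 fell. Pdia6 and Bhlhe41 also had a promoter peak.

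Markers of non-endocrine cells were also among the nearest genes. Of 16 duct markers 7 were, of which 1 rose, 5 did not pass and 1 was not tested. Among all 14 tested markers of this duct list, 3 rose and 0 fell, where 8.73% of all tested genes rose and 5.25% fell. Ambp, a secreted protein precursor with a region 2.88 kb upstream, went from 27.5 to 31.1 CPM in controls to 77.8 to 85.3 in the labelled knockout (log2 change 1.47 ± 0.11 SE, edgeR adjusted p = 1.31e-06). Of 30 acinar markers 1 was, the elastase gene Cela3b, with a region 2.70 kb upstream. The whole acinar list had 2 of 28 tested genes higher and 0 lower. Cela3b had 37.7, 191, 52.0 and 265 CPM in controls and 126, 619 and 210 in the labelled knockout, which overlap, and it did not pass (1.22 ± 0.94, edgeR adjusted p = 0.478) except with replicate number as a block (1.81, adjusted p = 6.44e-07). The 3 nearest genes among 28 endothelial, stromal and immune markers, Col1a1, Col1a2 and Pecam1, did not pass by edgeR. Of these 3, 2 had an unadjusted p under 0.05, and DESeq2 called 1 higher. In that whole list 1 of 25 tested genes fell and 1 rose.

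**Figure D5:**
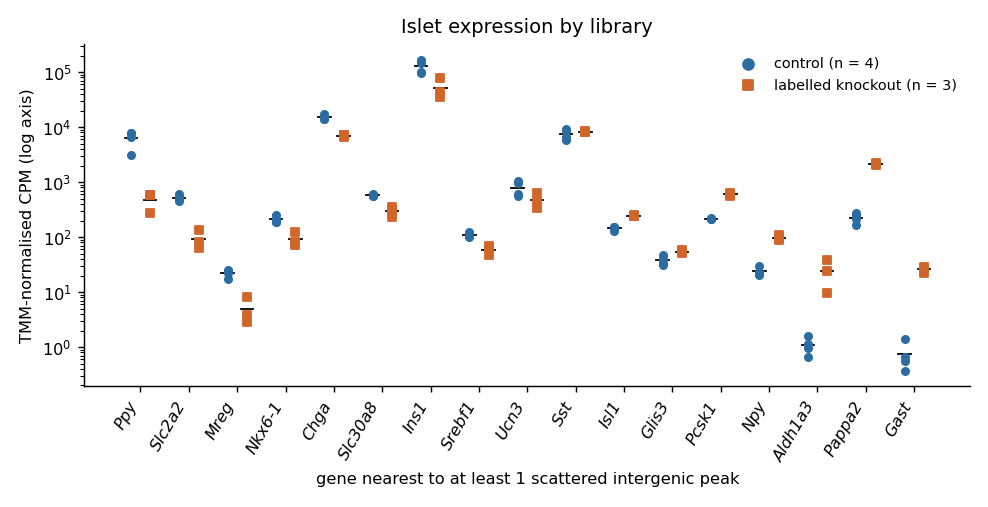
TMM-normalised CPM on a log axis (vertical) in each control (circles, n = 4) and labelled knockout library (squares, n = 3) for 17 genes nearest to a scattered intergenic peak (horizontal axis), with bars at the group means. The groups separate for Ppy, Slc2a2 and Gast by more than 3-fold and overlap for Ucn3 and Sst.

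Among called nearest genes whose groups did not overlap and whose mean CPM was at least 1, the 12 largest falls included Ppy and Slc2a2. The others were mostly not in the lists. Mcoln3, a lysosomal cation channel with a region 3.94 kb upstream, had 298 counts over the 4 controls and 1 count over the 3 knockout libraries, a ratio of 150 with a counting interval of 26.8 to 5956. That interval leaves out the spread between libraries. The fit over libraries gave a log2 change of -6.83 ± 0.89 (SE, edgeR adjusted p = 0.000158). Ppp1r17, an inhibitor of protein phosphatases with a region 18.9 kb upstream, had 7.41 to 10 CPM in controls and 0.223, 0.562 and 0.930 in the labelled knockout (log2 change -3.78 ± 0.40 SE, edgeR adjusted p = 2.35e-05). Rpp25, a subunit of RNase P and MRP, fell by 3.43 ± 0.53, and Pitpnm3, a phosphatidylinositol transfer protein, fell by 2.33 ± 0.20 on the log2 scale (edgeR adjusted p = 0.000599 and 4.50e-06). Both also had a promoter peak.

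Mreg, melanoregulin, an organelle transport protein, had 23.7, 25.4, 22.7 and 17.6 CPM in controls and 8.24, 3.84 and 2.83 in the labelled knockout (log2 change -2.21 ± 0.31 SE, edgeR adjusted p = 0.000315). It had 4 scattered regions, 7.01, 9.69 and 31.6 kb upstream and 88.1 kb downstream, and the one at 31.6 kb is printed above. Mreg also had a promoter peak and a peak inside the gene. Thsd4, an extracellular matrix protein, fell by 2.29 ± 0.25, and Olfm4, a secreted glycoprotein of gut crypts, fell by 2.09 ± 0.21 (edgeR adjusted p = 2.60e-05 and 1.98e-05). The other 3 lost their call when 1 library was left out. Plek2 fell by 3.58 ± 0.99 (edgeR adjusted p = 0.0264), and had adjusted p of 0.0781 and 0.0514 without control 3 and 4 and of 0.0562 and 0.0536 without knockout 1 and 2. Cox6a2, a cytochrome c oxidase subunit, fell by 2.37 ± 0.44 (edgeR adjusted p = 0.0140; 0.0713 and 0.0793 without knockout 1 and 2). Vwa5b1, with 3 regions, fell by 2.12 ± 0.63 (edgeR adjusted p = 0.0404; 0.0657, 0.106 and 0.110 without control 1, 2 and 3, and 0.0509 and 0.0773 without knockout 1 and 3, and 0.0785 by limma-voom).

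The 12 largest rises included Gast. Aldh1a3, a retinaldehyde dehydrogenase that marks dedifferentiated beta cells, had 1.57, 1.13, 0.670 and 0.957 CPM in controls and 24.5, 38 and 9.66 in the labelled knockout (log2 change 4.43 ± 0.43 SE, edgeR adjusted p = 2.74e-05). Its only peaks of any kind were 2 scattered regions 70.8 and 75.3 kb upstream, at chr7:66498153-66498352 and chr7:66502656-66502855. Pappa2, a protease that cleaves IGF-binding proteins, had 214, 163, 248 and 269 CPM in controls and 2240, 2174 and 2038 in the labelled knockout (3.27 ± 0.16, edgeR adjusted p = 6.01e-08), with a region 44.8 kb upstream. Pappa2 also had a nearer peak inside the gene, 26.3 kb downstream of its 5′ end. Every knockout library was far above every control for both genes.

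Lmo1, a LIM-only transcriptional cofactor, rose from 2.07 to 3.16 CPM in controls to 22.4 to 29.6 (log2 change 3.48 ± 0.21 SE, edgeR adjusted p = 2.24e-07). Lhfpl1 had 5 counts over the controls and 146 over the labelled knockout (5.97 ± 0.89, edgeR adjusted p = 0.000451). Tmem212 rose by 4.91 ± 0.42 and Mdga1, a cell adhesion protein, by 4.46 ± 0.59 on the log2 scale (edgeR adjusted p = 4.04e-06 and 0.000184). Sv2c, a vesicle protein, rose by 3.40 ± 0.37, F13a1, a coagulation factor subunit, by 3.02 ± 0.27, Klhl31 by 3.00 ± 0.46 and Dnah9, an axonemal dynein, by 2.94 ± 0.17 (edgeR adjusted p = 2.76e-05, 6.72e-06, 0.000629 and 2.08e-07). Cntnap5b rose by 2.87 ± 0.69 (edgeR adjusted p = 0.0129; 0.0681 without knockout 3). Of these 12 genes, 3, Mdga1, Lmo1 and Dnah9, also had a promoter peak.

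Many regions around a gene did not by themselves go with a change. The gene nearest to the largest number, 4930572O13Rik with 8 regions, had 9 counts in each group and was not tested. Ywhaz, a 14-3-3 adaptor protein with 6 regions, had 196 to 296 CPM in controls and 243 to 278 in the labelled knockout (log2 change 0.13 ± 0.15 SE, edgeR adjusted p = 0.629). Fos, an immediate early gene with 5 regions, ranged from 8.81 to 146 CPM in controls and from 19 to 248 in the labelled knockout, a spread within each group that is larger than the difference between the group means (edgeR adjusted p = 0.882). A further 27 genes had 4 regions each, and those among them with the highest mean CPM are named here. Of these, Nkx6-1 and Gse1 fell. Other genes with 4 regions, left out by that order, also changed, Mreg among them. Atxn1 fell by 0.77 ± 0.21 (edgeR adjusted p = 0.0279; 0.0977 under library size alone, 0.0646 and 0.0925 without control 1 and 2, 0.0939 and 0.0642 without knockout 1 and 2). Hdac4 fell by 0.54 ± 0.16 (edgeR adjusted p = 0.0343; 0.271 under library size alone, 0.0735 with the replicate block, 0.120, 0.0514 and 0.0551 without control 2, 3 and 4, 0.102 and 0.0626 without knockout 2 and 3). Smyd2 rose by 0.48 ± 0.12 (edgeR adjusted p = 0.0173; 0.0552 and 0.0550 without control 2 and 3, 0.0843 and 0.0502 without knockout 1 and 3). Gse1 fell by 0.52 ± 0.13 (edgeR adjusted p = 0.0153; 0.168 under library size alone, 0.0505 without control 2, 0.0645 and 0.0502 without knockout 1 and 3). Irf2bp2, Iyd, Hmgn3, Btg1 and 4921525O09Rik did not pass, and BC039966 was not tested. Iyd passed by DESeq2 (adjusted p = 0.0263) and limma-voom (adjusted p = 0.0372), and Irf2bp2 without control 1 (edgeR adjusted p = 0.0466).

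The other 2 genes whose RefSeq starts are printed above also changed. R3hdm2, which encodes a protein with a nucleic acid binding R3H domain, has 2 regions within 1 kb of a RefSeq start and fell by 0.58 ± 0.14 on the log2 scale (edgeR adjusted p = 0.0140; 0.0656 without knockout 1 and 0.101 under library size alone). Fez1, an adaptor for axonal transport, has 2 regions at RefSeq starts and had 10.2, 10.8, 8.28 and 8.14 CPM in controls and 29.0, 22.6 and 23.6 in the labelled knockout (1.41 ± 0.17, edgeR adjusted p = 9.15e-05). Counts are summed over each gene and do not separate transcripts from different starts.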

How the data were processed

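The expression values were deposited as whole-number counts per gene with mm10 coordinates, per the file headers. The submitters' processing notes name STAR 2.5, featureCounts 1.5.0-p1 of Subread and DESeq2, and also HOMER 4.9.1, Picard 1.110, Bowtie 1.2, bedtools 2.24.0 and cutadapt 1.2.1. For roles, settings, strand option, annotation and peak threshold: not given in the sources used here. Peaks were deposited as intervals without a score, so the other values used from the authors are positions only. The input library was not analysed here.

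Genes were kept with filterByExpr, scaled with TMM factors and tested with edgeR 4.0.16 (quasi-likelihood, robust; R 4.3.3), adjusted over 14529 genes by Benjamini-Hochberg. Log2 changes are labelled knockout over control, and an SE is the absolute log2 change over the square root of F. DESeq2 1.42.0 and limma 3.58.1 served as alternatives. The table's 25611 rows include 988 that repeat a symbol. Within groups, libraries differed beyond counting noise (chi-square per degree of freedom 23.4 to 95.4), and the labels' design text names separate mice.

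Each peak was assigned to the nearest gene 5′ end of the table. Peaks of other kinds at a named gene are not always listed in the text. No genome was at hand, so the planned motif search was limited to RefSeq promoter windows. The fit was tested on simulated data. The members, lists and tests were chosen with earlier results of these data known. Named genes are the 12 largest falls and rises among called nearest genes (mean CPM at least 1, no overlap, predicted symbols left out), the 12 genes with the most regions, up to 4 called genes per list by p, and 14 islet genes; any other is named after its values were seen. Some genes that this rule names are not reported here. Same-numbered libraries of the groups deviated together (correlations 0.173, 0.117 and 0.117), which is the only evidence that numbers pair the samples; control 4 and knockout 3 also correlated, at 0.157.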

Additional observations from a re-analysis of the deposited data

Results flagged for a closer look

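Lmo1 had 1 control library apart from the rest, with 2.229, 2.237, 2.070 and 3.159 CPM, and the gap below the highest value was 0.847 of the range over the 4 controls. Btg1 likewise had 107, 164, 117 and 111 CPM, with a gap ratio of 0.832. Both exceed Dixon's limit for 4 libraries. These were 2 of 90 groups examined, and chance alone passes the limit in about 1 of 20.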

How the results depend on the processing

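Among the 3296 regions' nearest genes, the counts of 192 lower and 173 higher kept within 1.5 times under RLE factors, no filter, a filter of 1 CPM in 3 libraries, DESeq2, limma-voom, the replicate block (202 and 183), the nearest tested gene, a limit of 50 kb and the exclusion of RefSeq spans. Leaving out each library in turn gave 148 to 187 lower and 138 to 158 higher. Library size alone gave 99 lower nearest genes and 324 lower genes in all. An adjusted p under 0.01 gave 101 lower and 111 higher nearest genes, and 336 and 731 in all. A limit of 10 kb gave 60 lower and 53 higher. Genes with no other kind of peak gave 23 and 50 of 398, a change of share as well as of number (5.78% lower, 12.6% higher); the cause was not tested. In the central 100 bp, 0 and 2.56% of the 39 covered regions held TGGGGGGT and GGGGGGT. The replicate block changed no other call of a named gene than those of Glis3, Ucn3, Glp1r, Cela3b and Hdac4. Signs turned, with no value past the threshold, for the log2 change of 4921525O09Rik (-0.19 without knockout 1, up to 1.41 when another library was left out), the log2 change of Fos (-0.13 with the replicate block, -1.47 without knockout 1, up to 1.04 without control 2), the log2 change of Btg1 (0.07 under library size alone, 0.09 without control 2, 0.04 without knockout 2, down to -0.22 without knockout 3) and the log2 change of Pdx1 (0.08 under library size alone, 0.06 without knockout 1, down to -0.21 without knockout 2); the cause was not tested. A stricter peak threshold and motif windows away from the peak could not be run, for want of scores and of a genome. Depth limits Gast, Lhfpl1 and Mcoln3, with few counts in 1 group.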
